A study of Rattus norvegicus with 5 samples.

Results

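The genes described here encode the enzymes and inhibitors through which cAMP acts in spiny projection neurons of the striatum. They are 10 genes chosen by name, taken from the gene symbols in the authors' deposited comparison, out of 32285 genes in the count tables. The set holds Ppp1r1b, which encodes DARPP-32, and Arpp21 and Arpp19, which encode other phosphoproteins regulated by cAMP. It also holds the phosphatase genes Ptpn5 (STEP), Ppp1ca and Ppp3ca, the PP1 anchor Ppp1r9b, and the protein kinase A (PKA) genes Prkaca, Prkacb and Prkar2b. All 10 were found, each under a single Ensembl identifier, and all 10 passed the filter on low counts.

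Each of the 5 libraries was RNA sequencing of rat striatal neurons cut out one by one with a laser. Fluorescent tracer placed in the region their axons reach had travelled back to the cell body, so the target of the axon set the group. Striatomesencephalic neurons, the direct pathway, project to the midbrain and gave 2 libraries. Striatopallidal neurons, the indirect pathway, project to the pallidum and gave 3 libraries. No genotype, strain, age, sex or drug treatment appears in the labels, and the cells and animals behind each library are not counted there. The p-values therefore measure the spread between these 5 libraries, which may be technical. In such bulk libraries, fewer cells that carry a transcript and less of it per cell cannot be told apart.

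In these neurons dopamine sets the level of cAMP, with opposite signs through the receptors of the direct and the indirect pathway, and cAMP frees the catalytic subunits of PKA from their regulatory subunits. PKA then phosphorylates DARPP-32, which in that form inhibits protein phosphatase PP1, and calcineurin, a phosphatase switched on by calcium, removes that phosphate. STEP is a tyrosine phosphatase rich in striatum that acts on the kinase Fyn and on glutamate receptors, and it is itself held back by PKA and released by PP1.

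Library totals ran from 20845178 to 24805062 counts, so that 3 counts, the detection floor, came to between 0.121 and 0.144 CPM (counts relative to the total of the library). The floor covers counting error only, and all members lay far above it, the lowest count being 498 for Prkaca. Striatopallidal library 2 stood apart from the others, with 11871 genes at 10 counts or more against 12844 to 13969, and a normalization factor of 0.774 against 1.02 to 1.14. The 6 markers of the pathways stood on the side their labels call for in all 5 libraries, with no overlap between the groups. Drd1, Tac1 and Pdyn had log2 fold changes of 1.12, 1.13 and 1.86 (striatomesencephalic minus striatopallidal), while Adora2a, Drd2 and Penk had -1.75, -2.05 and -2.69. Even so, each had an adjusted p of 0.779 over all genes with edgeR's quasi-likelihood test, which none of them passed. Markers of the other pathway were present in each group. In striatomesencephalic libraries Adora2a stood at 789 and 1130 CPM, Drd2 at 138 and 108, and Penk at 250 and 354. Drd1 in striatopallidal libraries stood at 390 to 512 CPM, Tac1 at 810 to 1356 and Pdyn at 246 to 346. These CPM were scaled by the normalization factors, and mixing of the neuron types was not tested. RNA of glia was present in both groups. Sums of markers were taken in CPM without those factors. The 10 oligodendrocyte markers summed to 5979 and 7479 CPM in the striatomesencephalic group and to between 5348 and 7234 CPM in the striatopallidal group. The 10 astrocyte markers summed to 1178 and 1418 CPM against 1057 to 1555 CPM, with no marker of either list at 0. Gfap, the filament protein of astrocytes, stood at 3.78 and 10.98 CPM against 82.4 to 226 CPM, scaled by the normalization factors. Of the 10 astrocyte genes 6 had a log2 fold change above 0 and 4 below, with Gfap at -4.56, Aqp4 at -0.86, Aldoc at 0.98 and Aldh1l1 at 2.63 the ones whose groups did not overlap. The 4 matched microglial markers of 8 listed summed to 18.2 and 32.9 CPM against 29.6 to 89.7 CPM, again without those factors. The 5 vascular markers of 8 summed to 35.5 and 74.1 against 56.8 to 124 CPM. The 4 interneuron markers of 8 summed to 58.3 and 70.3 against 62.2 to 128 CPM. Log2 fold changes were above 0 for 0 of 4 microglial, 1 of 5 vascular and 1 of 4 interneuron markers, against 47.4% of all genes tested. The part of these cells in the values below was not tested.

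The comparison asked whether the shared cAMP machinery is transcribed at the same level in both kinds of projection neuron. No member passed the threshold of 0.05 after adjustment over all 13811 genes tested with edgeR's quasi-likelihood test. The smallest adjusted p among members was 0.804, for Ppp3ca, and the share of all genes called was 0%. At an unadjusted p under 0.05 there were 0 members of 10, against 6.07% of all genes tested. DESeq2, which called 219 genes or 1.66% of those it adjusted, the exact test of edgeR, which called 45 genes or 0.326%, and limma voom, which called 0 genes, likewise called 0 members. Log2 fold changes of the members, always given as striatomesencephalic minus striatopallidal, ran from -0.63 for Arpp19 to 0.67 for Prkaca. Of the 10, 3 were above 0 and 7 below, where 47.4% of all genes were above 0, and their median was -0.10 against -0.06 over all genes tested. The 95% intervals of the members reached down to -1.62 for Arpp19 and up to 2.06 for Prkaca, so differences within them were not detectable with these libraries. The groups did not overlap for 3 members, Prkaca, Ppp3ca and Arpp19, or 30% of the set, against 21.6% of all genes tested. In CPM without TMM factors these were 2 members, Prkaca and Ppp3ca, against 21.1% of all genes.

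**Figure D1:**
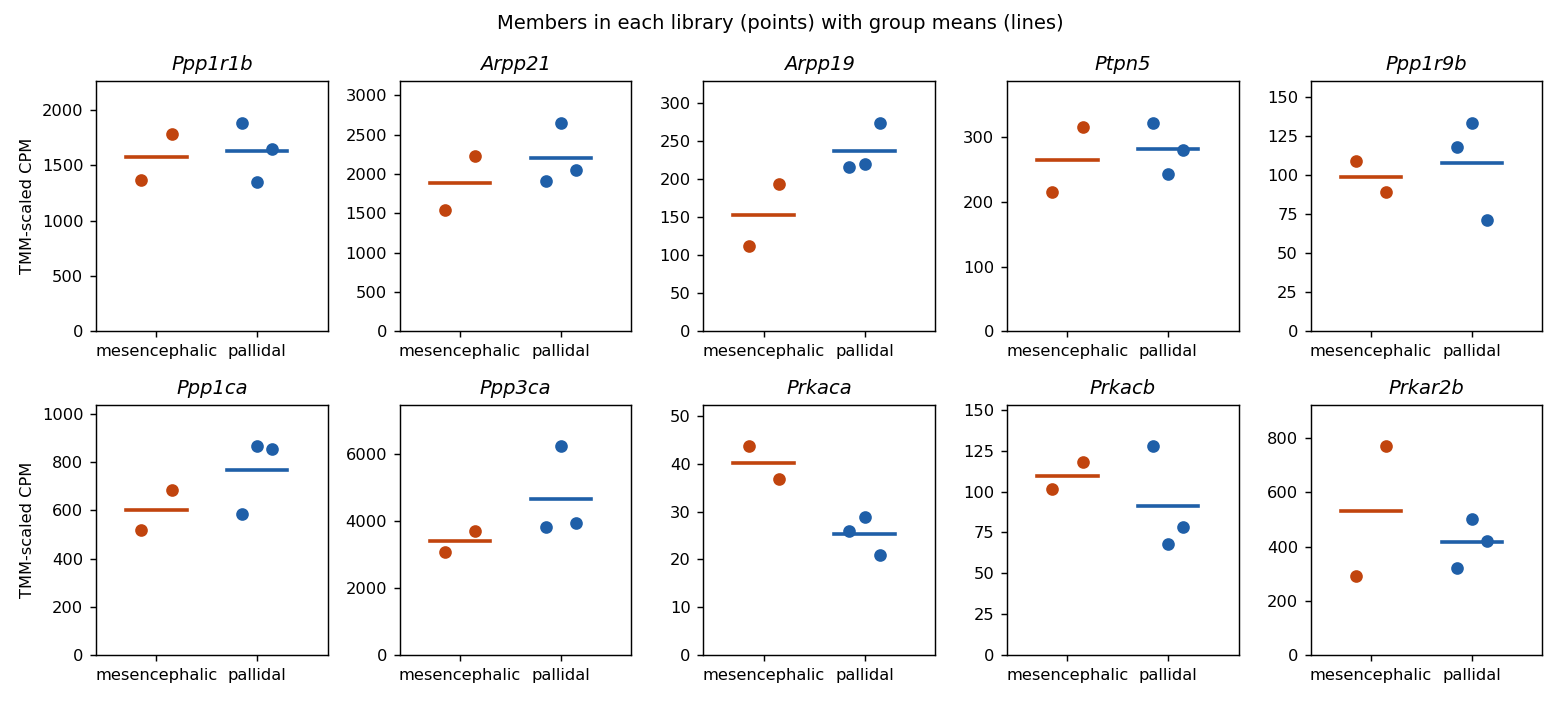
Each panel shows 1 gene, with CPM scaled by TMM factors on a linear axis from 0, a point for each library (2 striatomesencephalic in red on the left, 3 striatopallidal in blue on the right) and a line at each group's mean. Points of the groups are apart for Arpp19, Ppp3ca and Prkaca, and intermingle for the other 7 genes.

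CPM values below are scaled by TMM factors, as in the test, and were not divided by transcript length, so levels of different genes are not ranked. Ppp1r1b (ENSRNOG00000028404) encodes DARPP-32, the switch between PKA and PP1. It stood at 1366 and 1781 CPM in striatomesencephalic libraries 1 and 2, and at 1884, 1351 and 1648 CPM in striatopallidal libraries 1, 2 and 3. The highest and the lowest value both belonged to striatopallidal libraries, and the striatomesencephalic values lay between them. The mean was 1573 ± 294 CPM (SD, n = 2) in the striatomesencephalic group and 1628 ± 267 CPM (SD, n = 3) in the striatopallidal group. The log2 fold change was -0.05 ± 0.28 (SE), with adjusted p = 0.991. The 95% interval of the striatomesencephalic to striatopallidal fold ran from 0.609 to 1.53.

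Arpp21 (ENSRNOG00000008919) encodes a cAMP-regulated phosphoprotein that binds calmodulin once phosphorylated by PKA. It stood at 1545 and 2227 CPM in striatomesencephalic libraries and at 1907, 2650 and 2044 CPM in striatopallidal libraries. Striatomesencephalic library 1 was the lowest of the 5 and striatopallidal library 2 the highest. Striatomesencephalic library 2 lay above striatopallidal libraries 1 and 3. The log2 fold change of Arpp21 was -0.22 ± 0.29 (SE), with an interval from -0.91 to 0.46 and adjusted p = 0.917. Striatopallidal library 2 was not the highest in CPM without TMM factors, at 2049 CPM. Striatomesencephalic library 2 then stood at 2267 CPM, and striatopallidal libraries 1 and 3 at 2168 and 2174 CPM.

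Arpp19 (ENSRNOG00000023086) encodes a small phosphoprotein that PKA can phosphorylate and that, phosphorylated at another site by the Greatwall kinase, inhibits PP2A of the B55 type. Its values were 112 and 194 CPM in striatomesencephalic libraries and 216, 220 and 274 CPM in striatopallidal libraries. Every striatopallidal value lay above both striatomesencephalic ones, but the gap between the nearest libraries was 1.11-fold, smaller than that between the striatomesencephalic libraries themselves. The striatomesencephalic mean was 153 ± 58.3 CPM (SD, n = 2) and the striatopallidal mean 237 ± 32.5 CPM (SD, n = 3). On the log2 scale the difference was -0.63 ± 0.42 (SE), with adjusted p = 0.809. In CPM without TMM factors the groups overlapped, since striatopallidal library 2 then stood at 170 CPM, below striatomesencephalic library 2 at 198 CPM.

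Ptpn5 (ENSRNOG00000013981), the gene of STEP, stood at 215 and 316 CPM in striatomesencephalic libraries and at 323, 243 and 280 CPM in striatopallidal libraries. The groups overlapped, with striatomesencephalic library 1 lowest and striatopallidal library 1 highest. Means were 266 ± 71.3 CPM (SD, n = 2) and 282 ± 40.0 CPM (SD, n = 3). The log2 fold change was -0.09 ± 0.37 (SE) with adjusted p = 0.984, and the interval of the fold ran from 0.514 to 1.73. Striatopallidal library 2 was the lowest in CPM without TMM factors, at 188 CPM, with striatomesencephalic library 1 at 225 CPM.

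Ppp1r1b and Ptpn5 followed each other closely from library to library. For every 100 counts of Ppp1r1b there were 15.8 and 17.7 counts of Ptpn5 in the striatomesencephalic libraries and 17.1, 18.0 and 17.0 in the striatopallidal libraries, a 1.14-fold span, while Ppp1r1b itself spanned 1.39-fold and Ptpn5 1.501-fold. With each gene's log2 CPM centred on its mean over the 5 libraries, the root mean square difference between these genes was 0.07, the smallest of all pairs of members. The next pairs were Arpp21 with Ppp3ca at 0.16 and Arpp21 with Ppp1ca at 0.17, and the widest was Arpp19 with Prkaca at 0.79. Among 2230 genes with a symbol and a mean of at least 100 CPM, Ptpn5 ranked 2 in nearness to Ppp1r1b and Ppp1r1b ranked 2 in nearness to Ptpn5, where the median difference was 0.53 for either. The other genes nearest to Ppp1r1b were Oxct1, a mitochondrial enzyme of ketone use, at 0.06 and RGD1307100 at 0.08. Those nearest to Ptpn5 were Scp2, a sterol carrier protein gene, at 0.06 and Atp5b, a subunit of ATP synthase, at 0.07. These likenesses describe 5 libraries that share depth and scaling, and carry no test. The ratio of the 2 genes was computed after their nearness had been seen.

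**Figure D2:**
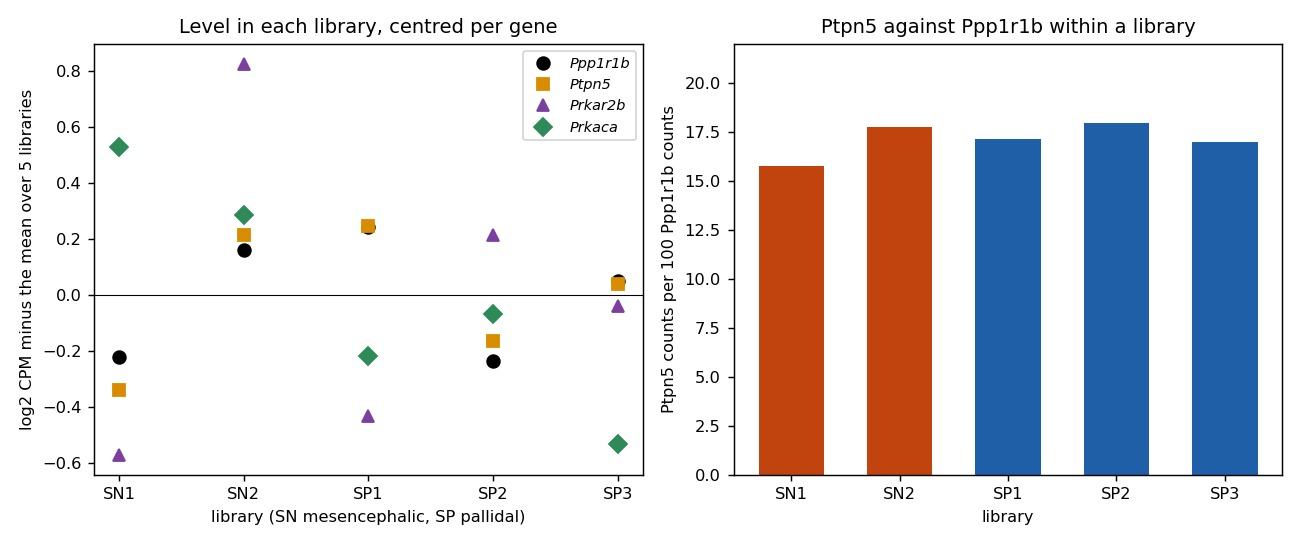
Left, log2 CPM of 4 members in each library (SN striatomesencephalic, SP striatopallidal) minus the gene's mean over the 5 libraries. Right, counts of Ptpn5 per 100 counts of Ppp1r1b in the same libraries, on an axis from 0. Ppp1r1b and Ptpn5 lie close together in every library while Prkar2b and Prkaca go elsewhere, and the bars lie between 15.8 and 18.0.

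Ppp1ca (ENSRNOG00000018708) encodes the alpha catalytic subunit of PP1, the phosphatase that DARPP-32 inhibits. It stood at 519 and 683 CPM in striatomesencephalic libraries and at 585, 866 and 856 CPM in striatopallidal libraries. Striatopallidal libraries 2 and 3 were above the rest, and library 1 lay between the striatomesencephalic ones. Striatopallidal library 2 stood at 669 CPM without TMM factors, below striatomesencephalic library 2 at 695 CPM. The log2 fold change was -0.36 ± 0.33 (SE), adjusted p = 0.869. Ppp1r9b (ENSRNOG00000052113) encodes spinophilin, which holds PP1 in dendritic spines. Its values were 109 and 89.1 CPM against 118, 134 and 71.5 CPM, so that striatopallidal libraries held both the highest and the lowest. The log2 fold change was -0.12 ± 0.48 (SE), adjusted p = 0.981.

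Ppp3ca (ENSRNOG00000009882) encodes the alpha catalytic subunit of calcineurin, which takes the PKA phosphate off DARPP-32. It stood at 3079 and 3697 CPM in striatomesencephalic libraries and at 3803, 6221 and 3938 CPM in striatopallidal libraries. The groups did not overlap, although the nearest libraries differed by only 1.03-fold and striatopallidal library 2 stood far above the other 4. The striatomesencephalic mean was 3388 ± 437 CPM (SD, n = 2) and the striatopallidal mean 4654 ± 1359 CPM (SD, n = 3). On the log2 scale the difference was -0.46 ± 0.29 (SE), with adjusted p = 0.804. Without striatopallidal replicate 2 the log2 fold change was -0.20. The lead of striatopallidal library 2 was smaller in CPM without TMM factors, at 4810.5 against 4325 and 4187 CPM in striatopallidal libraries 1 and 3. The striatomesencephalic libraries then stood at 3216 and 3763 CPM. The authors' deposited table gives Ppp3ca 0.36 in the opposite orientation, striatopallidal minus striatomesencephalic. In the authors' deposited table its p is 0.0428, rank 441 of 12054 genes, and its adjusted p is 0.927. Of all genes in the authors' deposited table, 546 have a p under 0.05, Ppp3ca is the only member among them, and the smallest adjusted p of any gene is 0.927. For Ppp1r1b and Ptpn5 the authors' deposited table has the opposite sign to the edgeR fit, with sizes of 0.10 and 0.03, and for the other 8 members the same sign.

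Prkaca (ENSRNOG00000005257) encodes the alpha catalytic subunit of PKA, the kinase itself. It stood at 43.6 and 36.8 CPM in striatomesencephalic libraries, from 950 and 848 counts. In striatopallidal libraries it stood at 26.0, 28.9 and 20.9 CPM, from 706, 554 and 498 counts. Both striatomesencephalic values lay above all striatopallidal ones, by 1.28-fold between the nearest libraries, and this held in CPM without TMM factors too. Prkaca was the only one of the 10 members with this order, which 10.4% of all genes tested showed. The striatomesencephalic mean was 40.2 ± 4.81 CPM (SD, n = 2) and the striatopallidal mean 25.3 ± 4.05 CPM (SD, n = 3). On the log2 scale the difference was 0.67 ± 0.59 (SE), with an interval from -0.72 to 2.06 and adjusted p = 0.859. Over the 13 alternative settings the log2 fold change of Prkaca lay between 0.55 and 0.79.

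Prkacb (ENSRNOG00000004978), the gene of the beta catalytic subunit, stood at 102 and 118 CPM against 128, 68.1 and 78.1 CPM. Striatopallidal library 1 was the highest of the 5 and the other striatopallidal libraries the lowest. The log2 fold change was 0.27 ± 0.48 (SE) with adjusted p = 0.951, and 0.08 without striatopallidal replicate 2. Prkar2b (ENSRNOG00000009079) encodes the RII-beta regulatory subunit, the form that predominates in striatal neurons and binds cAMP to release the catalytic subunits. Its values were 292 and 770 CPM in the striatomesencephalic group and 322, 503 and 423 CPM in the striatopallidal group. The striatomesencephalic libraries were the lowest and the highest of all 5, and the log2 fold change of 0.35 ± 0.47 (SE, adjusted p = 0.920) was -0.51 without striatomesencephalic replicate 2.

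**Figure D3:**
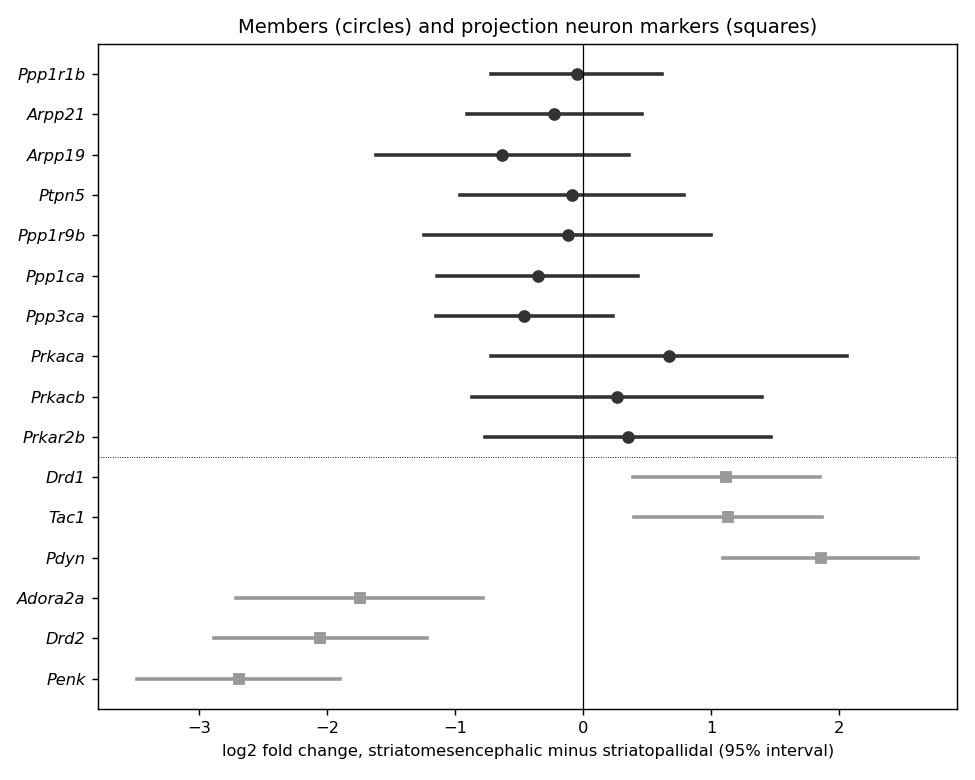
Log2 fold change of each member (circles) and of 6 pathway markers (squares, for scale), striatomesencephalic minus striatopallidal, with the 95% interval from edgeR's quasi-likelihood fit. Intervals of all 10 members include 0, from -0.63 for Arpp19 to 0.67 for Prkaca, while those of the 6 markers lie to one side of it.

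The members also differed in how steady they were within a group. The SD of log2 CPM, pooled over both groups, was 0.22 for Prkaca, 0.25 for Ppp1r1b, 0.28 for Ptpn5 and 0.30 for Arpp21. It was 0.63 for Prkar2b, the least steady member, and 0.41 for Ppp1r9b. Among 2231 genes with a mean of at least 100 CPM the median was 0.48, and 16.0% of them had a smaller SD than Ppp1r1b, 20.8% a smaller one than Ptpn5 and 66.2% a smaller one than Prkar2b. Prkaca and Prkacb had means under 100 CPM over the 5 libraries, at 31.3 and 98.6 CPM, and were not set against those genes.

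A ratio of 2 genes within a library does not depend on how libraries are scaled, so each member with a close relative was also read against it. The 8 ratios were tested between the groups with the exact two-sided permutation test, which with 2 against 3 libraries cannot give a p under 0.1. None reached that value, and after adjustment over the 8 ratios no p was under 0.64. Prkacb to Prkaca counts stood at 2.33 and 3.20 in striatomesencephalic libraries and at 4.90, 2.36 and 3.73 in striatopallidal libraries (exact p = 0.4). Ppp1ca to Ppp1cc, which encodes the gamma subunit of PP1, stood at 0.205 and 0.208 against 0.229, 0.264 and 0.259, the only ratio whose groups did not overlap (exact p = 0.2). Its log2 difference was -0.27, and it kept its sign without each library in turn, from -0.34 to -0.24. Ppp1r1b to Ppp1r1a, the gene of inhibitor-1, a PP1 inhibitor built like DARPP-32, was 7.21 and 9.52 against 10.2, 12.5 and 7.75 (exact p = 0.4).

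The ratio of Ppp3ca to Ppp3cb, the genes of the alpha and beta catalytic subunits of calcineurin, was steady in striatomesencephalic libraries, at 9.81 and 10.96, and wide in striatopallidal libraries, at 4.28, 15.6 and 2.59 (exact p = 0.4). Arpp19 to Ensa, the gene of its close relative endosulfine alpha, stood at 0.574 and 1.07 against 1.08, 0.780 and 1.149 (exact p = 0.5). Ppp1r9b to Ppp1r9a, the genes of spinophilin and neurabin, stood at 0.463 and 0.870 against 0.672, 0.274 and 0.384 (exact p = 0.4). The ratio of Prkar2b to Prkar1b, a type I regulatory subunit, ran from 9.67 to 63.4 in striatomesencephalic and from 15.6 to 116 in striatopallidal libraries (exact p = 0.9). That of Ppp1ca to Ppp1cb, the beta subunit of PP1, ran from 1.34 to 1.45 and from 1.18 to 1.597 (exact p = 1). These relatives are alike in sequence, and how the authors counted reads that fit more than 1 gene is not known here.

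**Figure D4:**
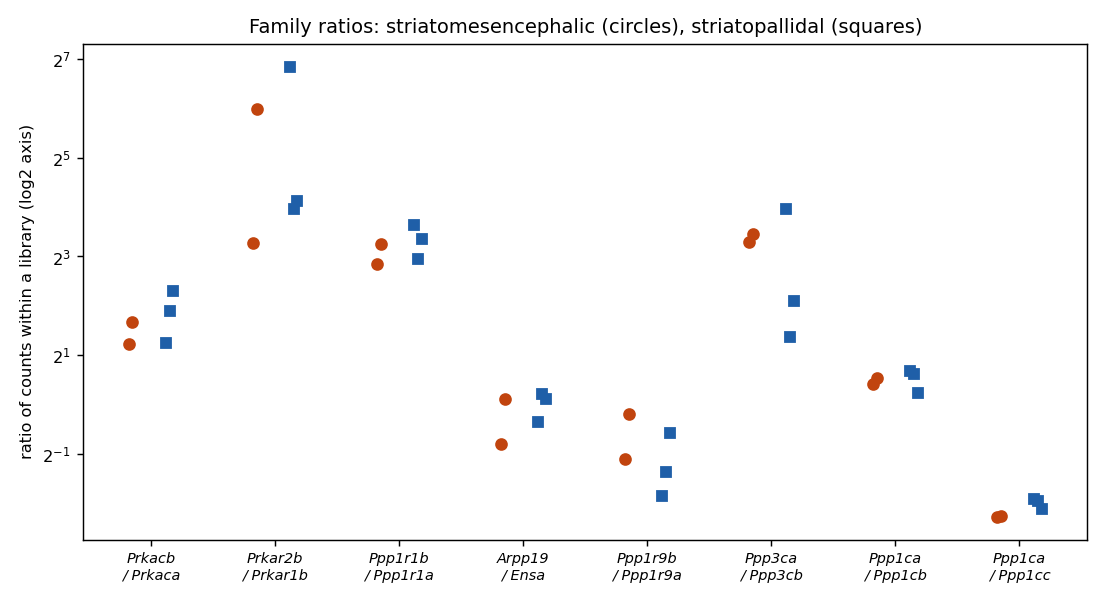
Ratio of the counts of a member to those of a relative within each library, on a log2 axis, with circles for the 2 striatomesencephalic and squares for the 3 striatopallidal libraries. Circles and squares overlap for 7 of the 8 ratios and are apart for Ppp1ca to Ppp1cc.

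Around the 10 members, 8 lists of other genes of the pathway held no gene past the threshold in edgeR's quasi-likelihood test. That test called 0 of all 13811 genes tested, so this does not set the lists apart. Of the other PKA subunits and inhibitors, 6 of 7 were tested, 5 above 0 and 1 below, with a median log2 fold change of 0.58 against -0.06 over all genes. Prkx, which encodes a kinase related to the PKA catalytic subunits, stood at 53.8 and 72.6 CPM against 24.5, 31.2 and 8.85 CPM, with no overlap (log2 fold change 1.55, adjusted p = 0.779). Prkar2a, the RII-alpha subunit, had 94.9 CPM in striatomesencephalic library 1 and 6.86 to 18.3 CPM in the other 4, so its log2 fold change of 2.01 rested on that library. Of 11 genes of A-kinase anchoring proteins, which tether PKA near its substrates, 7 were above 0 and 4 below, with a median of 0.31. Akap5, which anchors PKA and calcineurin at the postsynaptic membrane, stood at 71.7 and 97.0 CPM against 32.7, 29.6 and 58.7 CPM, with no overlap (log2 fold change 1.06, adjusted p = 0.780). Akap8, a nuclear anchor, stood at 66.7 and 35.0 against 19.5, 4.01 and 22.4 CPM (log2 fold change 1.73, adjusted p = 0.779).

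Phosphatase lists had medians near that of all genes. Of 14 PP1 subunits, inhibitors and targeting proteins, 6 were above 0 and 8 below, with a median of -0.04. Of these, Ppp1r14c, a PP1 inhibitor gene, reached an unadjusted p of 0.0485 (adjusted p = 0.779) at 1.19 to 21.3 CPM, and Ppp1r10, a nuclear PP1 anchor, had -0.84. Among 7 calcineurin genes, 3 were above 0 and 4 below, with a median of -0.04. Ppp3cb stood at 314 and 337 CPM in striatomesencephalic libraries and at 890, 399 and 1523 CPM in striatopallidal libraries, with no overlap, a log2 fold change of -1.53 ± 0.56 (SE), an unadjusted p of 0.0303 and adjusted p = 0.779 in edgeR's fit. In CPM without TMM factors its groups overlapped, since striatopallidal library 2 then stood at 308 CPM, below the striatomesencephalic libraries at 328 and 343 CPM. Its relative Ppp3ca had -0.46, as given above. Rcan1, a calcineurin inhibitor, had 0.54. Of 16 PP2A genes, 14 were tested, 6 above 0 and 8 below, with a median of -0.06. Ppp2r5a, a B56 subunit, stood at 86.1 and 73.2 against 137, 401 and 142 CPM (log2 fold change -1.51, adjusted p = 0.779). Ppp2r5b, another, had 415 CPM in striatopallidal library 2 alone and 9.48 to 15.7 CPM in the other 4.

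The next list held 12 genes of Cdk5, the casein kinases and their regulatory subunits, from families with kinases that act on DARPP-32. Of these, 8 were above 0 and 4 below, with a median of 0.20. Csnk1g1, a casein kinase 1 gene, stood at 70.6 and 160 CPM against 65.2, 35.7 and 40.0 CPM (log2 fold change 1.30, adjusted p = 0.779), and Cdk5, which phosphorylates DARPP-32 so that it inhibits PKA, had -0.80. Of 9 substrates and relatives of STEP, 6 were above 0 and 3 below, with a median of 0.14. Their groups were apart for 0 of the 9 genes, against 21.6% of all genes tested. Ptpn7, a phosphatase related to STEP, had 44.0 CPM in striatomesencephalic library 1 and 0.626 to 8.67 CPM in the others. Of 9 genes of the CREB pathway, by which PKA reaches transcription, 2 were above 0 and 7 below, with a median of -0.32. Crtc2, a CREB coactivator, had 1.44 and Atf1, a relative of CREB, -1.68, both with no overlap and neither past the threshold (adjusted p = 0.779 for each).

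**Figure D5:**
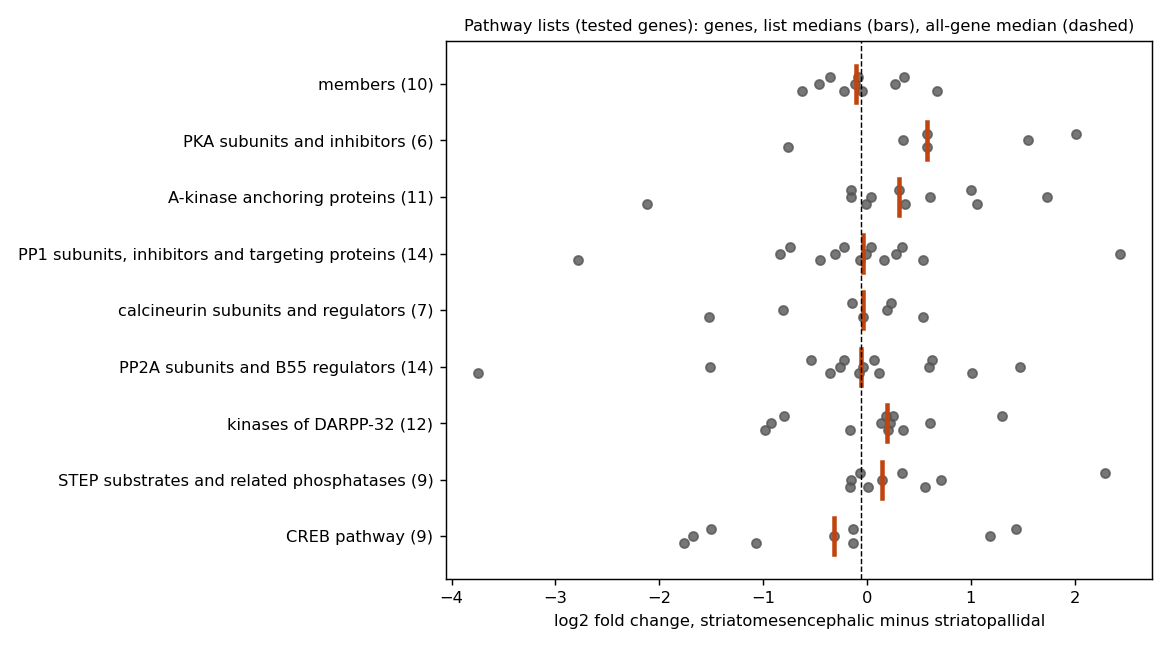
Log2 fold changes (striatomesencephalic minus striatopallidal) of the members and of 8 lists of pathway genes, with the number tested in brackets, a point for each gene, a red bar at each list's median and a dashed line at the median of all genes, -0.06. The 10 members lie between -0.63 and 0.67, and each of the 8 other lists holds genes beyond that range. Level was not matched between the lists. Means over the 5 libraries ran from 31.3 to 4148 CPM in the members. Genes beyond their range of fold changes include Ppp1r14c, with a mean of 6.96 CPM, and Ppp3cb, with 692 CPM.

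CREB, the transcription factor that PKA phosphorylates, binds the sequence TGACGTCA and its shorter form TGACG. Of the 10 members, 9 had a promoter entry in RefSeq's rat build GRCr8, and both forms were searched on both strands in the 250 bases before the start, the longer form containing the shorter. None of the 9 members held TGACGTCA there, which 1.59% of 33469 promoters did, and 2 of the 9, Prkaca and Arpp19, held TGACG, which 18.2% of promoters did. A match describes letters only, and no match says nothing of the factor. The windows of Prkaca and Ppp1ca are shown because these genes encode the opposed kinase and phosphatase of DARPP-32 signalling, and because they alone of the 9 lie outside every annotated gene. Capitals mark TGACG, read here as its reverse complement CGTCA, which begins 193 and 79 bases before the start of Prkaca. The window of Prkaca is chr19:41083190-41083439 on the minus strand, and that of Ppp1ca is chr1:210914326-210914575 on the plus strand.
Prkaca: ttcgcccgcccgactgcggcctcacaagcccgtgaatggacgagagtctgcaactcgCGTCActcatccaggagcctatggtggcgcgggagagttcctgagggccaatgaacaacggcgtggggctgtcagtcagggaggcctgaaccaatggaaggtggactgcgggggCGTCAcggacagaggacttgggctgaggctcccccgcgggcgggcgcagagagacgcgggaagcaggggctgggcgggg
Ppp1ca: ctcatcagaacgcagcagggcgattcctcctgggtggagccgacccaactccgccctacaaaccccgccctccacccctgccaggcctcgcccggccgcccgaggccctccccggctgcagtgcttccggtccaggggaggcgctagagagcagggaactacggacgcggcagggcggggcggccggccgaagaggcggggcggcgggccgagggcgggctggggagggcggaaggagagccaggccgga
Prkaca, with both matches, was the member whose striatomesencephalic values all lay above the striatopallidal ones, and Ppp1ca, with none, had overlapping groups. Ppp3ca also held no match, yet its groups did not overlap, with the striatopallidal values higher. Whether matches go with levels was not tested. Arpp19, which held 1 match in 1 of its 2 promoter entries, beginning 15 bases before the start, had the opposite order to Prkaca.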

How the data were processed

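The build was Rnor_6.0, per the submitters' processing notes, which name TopHat2, HTSeq, edgeR and limma without a version or a role. Per the labels' protocols, cDNA was made from polyadenylated RNA with the REPLI-g kit for single cells. The authors deposited raw counts per Ensembl gene for each library, and every test here used those counts. Their deposited comparison lists 12054 genes with a log2 fold change and p-values (raw and adjusted), and the authors' symbols, given for all but 15 of them, were used here. The other deposited tables of normalized values were not used.

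The test was that of edgeR 4.0.16 under R 4.3.3 (filterByExpr, TMM, glmQLFit, glmQLFTest, Benjamini-Hochberg threshold 0.05) on all 5 libraries. The code was checked on simulated counts, where recovery was required only at a spread far below that of these libraries. How many true differences the test finds at their spread is not reported here. The common biological coefficient of variation was 0.822. Each standard error is the log2 fold change over the root of F. DESeq2 1.42.0, the exact test of edgeR, limma voom 3.58.1, other scalings, no filter, each library left out and a replicate block were tried. Ratios used 0.5 added counts. Named genes were the members, the 2 genes of each pathway list with the smallest p, the 3 genes nearest to Ppp1r1b and to Ptpn5, 6 pathway markers, Mbp and Gfap, with relatives used in ratios. A gene that this rule takes is not reported here. Mbp, the myelin gene, ran from 2153 to 4872 CPM. The members and lists were chosen with earlier results of these data known. No annotation of Rnor_6.0 was used.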

Additional observations from a re-analysis of the deposited data

How the results depend on the processing

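No member passed the threshold under any of the 13 alternative settings, and the smallest adjusted p of a member was 0.674, for Arpp19 without striatopallidal replicate 2. Of all genes, 219 passed with DESeq2 and 45 with the exact test of edgeR, against 0 with edgeR's quasi-likelihood test and 0 under each of the other settings. Leaving out each library in turn, between 3 and 6 members were higher in striatomesencephalic libraries, 6 of them without striatomesencephalic replicate 1. In the same refits the log2 fold change ran from -0.25 to 0.13 for Ppp1r1b, from -0.51 to 0.021 for Arpp21, from -0.39 to 0.17 for Ptpn5, from -0.35 to 0.057 for Ppp1r9b and from -0.51 to 0.89 for Prkar2b, crossing 0 in each case, and the cause was not tested. Those of the other 5 members kept their sign under all 13 but not their size, running without each library from -1.08 (without striatomesencephalic replicate 2) to -0.28 (without striatomesencephalic replicate 1) for Arpp19, from -0.56 to -0.17 without the same libraries for Ppp1ca, from -0.59 to -0.20 (without striatopallidal replicate 2) for Ppp3ca, from 0.08 (without striatopallidal replicate 2) to 0.58 (without striatopallidal replicate 1) for Prkacb and from 0.55 to 0.79 for Prkaca. Where a refit left 1 striatomesencephalic library, that library was assumed to vary like the others. The number of members whose groups do not overlap lay between 3 and 7 without each library (7 without striatomesencephalic replicate 2 and 5 without striatopallidal replicate 1), a check chosen after seeing the data, and was 2 in CPM without TMM factors. Fewer libraries separate more often, and 50.9% and 32.5% of all genes tested did not overlap without those libraries. The count of members was 4 without striatomesencephalic replicate 1, where 49.4% of all genes did not overlap. It was 3 without striatopallidal replicate 2 (39.1% of all genes) and 4 without striatopallidal replicate 3 (31.9%). The difference in log2 ratio ran from -1.71 to 1.005 for Prkar2b to Prkar1b, from -0.78 to 0.12 for Arpp19 to Ensa and from -0.17 to 0.051 for Ppp1ca to Ppp1cb. The median of all genes moved by -0.15 without either striatomesencephalic library and by 0.10 without striatopallidal replicate 2, and by at most 0.06 with other scalings. With the replicate number as a block, 0 genes and 0 members passed. Deviations of same-numbered libraries from their group means had correlations of -0.03 and -0.04 over genes. With 2 striatomesencephalic libraries their deviations mirror each other, so these values cannot decide whether libraries are paired. The labels do not say so, and the numbers were not taken to pair the libraries. What greater depth would change was not tested.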
